A study of Mus musculus with 12 samples.

Results

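Slit1, Slit2, Slit3, Robo1 and Robo2 are the genes described here. They were taken by symbol from the gene table of the cortical single-nucleus RNA sequencing libraries, where all 5 were found among 55335 genes. The data came from 12 mice at postnatal day 21, 6 wild type (WT) and 6 heterozygous (Het) for the Myt1l S710fsX frameshift allele, with 3 males and 3 females of each genotype. MYT1L is a zinc finger transcription factor of neurons. Mice of both genotypes had been injected as newborn pups with AAV9 vectors for calling cards, a method that marks where a protein binds DNA, so the WT animals are not untreated. The Het mice carry the allele in every cell from conception, and each library was dissected cortex of 1 animal. Although the tissue is labelled cortex, nuclei with markers of the hippocampus and striatum were present, and they are described too. Single-nucleus sequencing counts transcripts inside nuclei, much of it unspliced, with unique molecular identifiers (UMIs).

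SLIT proteins are secreted ligands and ROBO proteins are their receptors on the cell surface. Binding of SLIT to ROBO recruits proteins that act on actin and repels growing axons and migrating cells, among them commissural axons at the midline and axons and interneurons of the forebrain. In the maturing cortex the same genes are also studied in dendrite growth and synapse formation. In vertebrates, the introns of Slit2 and Slit3 hold the microRNA miR-218, which is known to repress Robo1 and Robo2 through their 3′ untranslated regions (UTRs), so ligand and receptor genes are also linked through a small RNA.

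In mm10, Slit1 (ENSMUSG00000025020.11) lies on the minus strand at chr19:41600257-41743665 and Slit2 (ENSMUSG00000031558.15) on the plus strand at chr5:47983138-48307733. Slit3 (ENSMUSG00000056427.10) lies on the plus strand at chr11:35121224-35708507. The receptors are neighbours on chromosome 16, with Robo1 (ENSMUSG00000022883.11) on the plus strand at chr16:72308306-73046095 and Robo2 (ENSMUSG00000052516.19) on the minus strand at chr16:73891839-74411825. Mir218-1 is at chr5:48223942-48224051 inside Slit2 and Mir218-2 at chr11:35616816-35616925 inside Slit3. Both are on the strand of their host and overlap 0 annotated exons of the 5 genes. Their mature products are printed from RefSeq (GRCm38.p6) because they tie the ligand genes to the receptor genes, with the seed, bases 2 to 8, in capitals. The 5p product is the same from both genes, and the 3p products have different seeds.

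miR-218-5p: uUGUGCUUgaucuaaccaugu
miR-218-1-3p: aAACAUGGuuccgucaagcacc
miR-218-2-3p: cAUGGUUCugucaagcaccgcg

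The reverse complement of the 5p seed, AAGCACA, was searched on the sense strand of the longest annotated 3′ UTR of each gene (GENCODE vM21). It was present 1 time in Robo1 and 2 times in Robo2, printed here with the match in capitals to show where the receptor transcripts could pair with a microRNA encoded in the ligand genes.

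Robo1, chr16:73045334-73045355, plus strand: ttttttggttttaaAAGCACAa
Robo2, chr16:73895358-73895379, minus strand: ttttatttggtgatAAGCACAa
Robo2, chr16:73893032-73893053, minus strand: gtcacggcagacccAAGCACAg

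Of genes with a 3′ UTR within 10% of that length, 18.5% of 1447 held the same 7 letters for Robo1 and 38.5% of 756 for Robo2. Slit2 held 2 matches, against 34.2% of genes with a UTR of similar length holding any, and Slit1 and Slit3 held 0. A match is a description of the letters and not evidence of a site in use. Mature microRNAs were not measured in these libraries.

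The matrices held 78743 barcodes with library totals from 23425407 to 59947430 UMIs. The lower limits on UMIs and genes and the limit on mitochondrial reads that the study names kept 78722 of them. Its upper limits of 6000 UMIs and 3000 genes, with its limit on log genes over log UMIs, left 34860. Removing likely doublets left 33115 nuclei. Levels and calls below therefore leave out most barcodes, among them those richest in transcripts. The share within the limits differed by animal, for example 2116 of 6478 barcodes in Het male 1 and 4646 of 7301 in Het male 2. The study states more nuclei at this age than there are barcodes in these matrices, so applying its limits here does not give its number. Clustering without the 5 genes, their pathway or Myt1l among the genes used gave 73 clusters, of which 39 were named from marker genes into 22 classes, each written with the ending -like, and 10690 nuclei stayed in unnamed clusters. Levels are given for 19 classes with enough nuclei as CPM, the share of a gene in the counts summed over the nuclei of an animal and class, scaled to a fixed total. Levels are compared between classes for 1 gene at a time and never between genes, since longer genes give more counts. Myt1l was at 893 CPM ± 47.1 (SD, n = 6) in all nuclei of WT and at 996 ± 32.0 (SD, n = 6) in Het animals (log2 fold change 0.13, standard error 0.05, edgeR quasi-likelihood test with Benjamini-Hochberg adjusted p = 0.670). In L6 CT-like nuclei Myt1l was at 1115, 1180 and 1331 CPM in the lowest, median and highest WT animal and at 1369, 1427 and 1604 in Het animals, without overlap (log2 fold change 0.22, standard error 0.06, adjusted p = 0.0739 by edgeR, which did not call it, and 0.00711 by DESeq2, which did). Counts of a frameshift transcript do not check the genotype.

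Across classes, the ligands differed in their leading classes but shared DG-like nuclei (Slit1 and Slit3) and CA1-ProS-like nuclei (Slit2 and Slit3) among them. The receptors were highest in inhibitory neurons. For Robo2 this did not hold for every inhibitory class, as Pvalb-like nuclei (mean 999 CPM) lay below the excitatory L6b-like nuclei (1102). Which class ranked first for a gene changed with the set of nuclei used, as the values under other settings show. Slit1 was highest in L5 NP-like nuclei (near-projecting neurons of layer 5) and in DG-like nuclei (granule cells of the dentate gyrus). L5 NP-like nuclei had 307 to 470 CPM over the animals (mean 376 ± 56.3, SD, n = 12) and DG-like nuclei 293 to 457 (373 ± 52.6, SD, n = 12). These neighbours overlapped, and every animal was higher in both than any animal in the third class, the L6 CT-like nuclei (corticothalamic neurons of layer 6), at 139 to 225 CPM. CA1-ProS-like nuclei (pyramidal neurons of hippocampal CA1 and the prosubiculum) at 122 to 222 CPM could not be separated from the L6 CT-like nuclei. L6b-like nuclei followed with 34.1 to 210 CPM (mean 130), then the intratelencephalic (IT) classes with means of 53.1 to 90.6 CPM, inhibitory classes had means of 11.7 to 66.6 CPM, and oligodendrocyte-like nuclei were lowest at 1.47 ± 2.50 (SD, n = 12). After thinning each nucleus to 1500 UMIs, 41.1% of L5 NP-like nuclei and 23.8% of L6 CT-like nuclei were expected to hold a Slit1 UMI (65.7% and 43.0% without thinning, median depths 3506 and 3303 UMIs). In oligodendrocyte-like nuclei, which serve as background, it was 0.178% (0.363% without thinning, median 2487 UMIs).

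Slit2, the ligand best known from midline repulsion, was highest in 3 unrelated classes. Pvalb-like interneurons had 307 to 851 CPM (mean 555 ± 168, SD, n = 12), CA1-ProS-like nuclei 374 to 778 (552 ± 141) and Car3 claustrum type-like nuclei 160 to 591 (437 ± 126), and neighbours among them differed by less than the SD. The next class, striatal D2-like nuclei, had a mean of 246 ± 152. Other interneurons were far lower, with means of 7.74 CPM in Lamp5-like, 7.95 in Sncg-like, 10.9 in Vip-like and 45.2 in Sst-like nuclei, so that among cortical interneurons the Pvalb-like class alone was above 100 CPM. L5 NP-like and L6 CT-like nuclei, high in Slit1, had means of only 18.8 and 37.7 CPM of Slit2. VLMC-like nuclei (vascular leptomeningeal cells, fibroblasts of the brain's coverings) could only be pooled, because there were 51, and held 302 Slit2 UMIs, or 2274 CPM (exact 95% Poisson interval 2025 to 2546, counting error only).

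The levels of Slit3 separated into a high and a low group of classes. DG-like nuclei had 1469 to 2186 CPM (mean 1828 ± 231, SD, n = 12), CA1-ProS-like nuclei 1338 to 2048, L2/3 IT-like nuclei 1139 to 1586, striatal D2-like nuclei 855 to 1900, striatal D1-like nuclei 1029 to 1485 and L6 IT-like nuclei 821 to 1211. The lowest animal of these 6 classes, at 821 CPM, was above the highest animal of the seventh, Car3 claustrum type-like nuclei at 180 to 673 CPM. L4/5 IT-like nuclei, between the upper and lower IT classes in depth, had a mean of 405 ± 45.6, and L6 CT-like nuclei 170 ± 34.7. Within the inhibitory neurons the striatal classes stood apart from the interneurons: Pvalb-like nuclei had a mean of 264, and Sst-like, Vip-like, Sncg-like and Lamp5-like nuclei had means of 35.3 to 54.9.

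Robo1, a receptor for all 3 ligands, divided the inhibitory from the excitatory classes when whole classes were summed. A cluster of the L2/3 IT-like nuclei, described below, reached the inhibitory range. All 7 inhibitory classes had means between 1929 and 2685 CPM, with striatal D1-like nuclei highest at 2080 to 3362, and neighbours in the order of these classes overlapped. The lowest animal of any inhibitory class was at 1409 CPM. The highest value of any other class was 1381, in OPC-like nuclei (oligodendrocyte precursors), which had a mean of 1138 ± 147 (SD, n = 10). Excitatory classes had means from 189 in Car3 claustrum type-like to 839 in DG-like nuclei. Along the oligodendrocyte lineage the mean went from 1138 CPM in OPC-like to 98.6 ± 30.5 (SD, n = 9) in newly formed oligodendrocyte-like and 117 ± 33.5 (SD, n = 12) in oligodendrocyte-like nuclei, and the first did not overlap the other 2.

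Robo2, the other main neuronal receptor, was more even among neurons. It was highest in Lamp5-like nuclei at 1599 to 2065 CPM (mean 1792 ± 116, SD, n = 12), then striatal D1-like nuclei at 1246 to 2205 and Vip-like nuclei at 1273 to 1942. L6b-like nuclei, the deepest cortical neurons, were highest among excitatory classes at 750 to 1525, and Car3 claustrum type-like nuclei lowest among neurons at 133 to 541. The 3 glial classes measured per animal had means of 30.6 to 125 CPM. Robo2 was low in OPC-like nuclei (58.9 to 213 CPM), where Robo1 was high. In pooled astrocyte-like nuclei, of which 69 passed the limits, Slit1, Slit2 and Slit3 each had 0 UMIs, for which 3 counts, or 18.3 CPM, is taken as the limit, and Robo1 and Robo2 had 46 and 57.

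**Figure D1:**
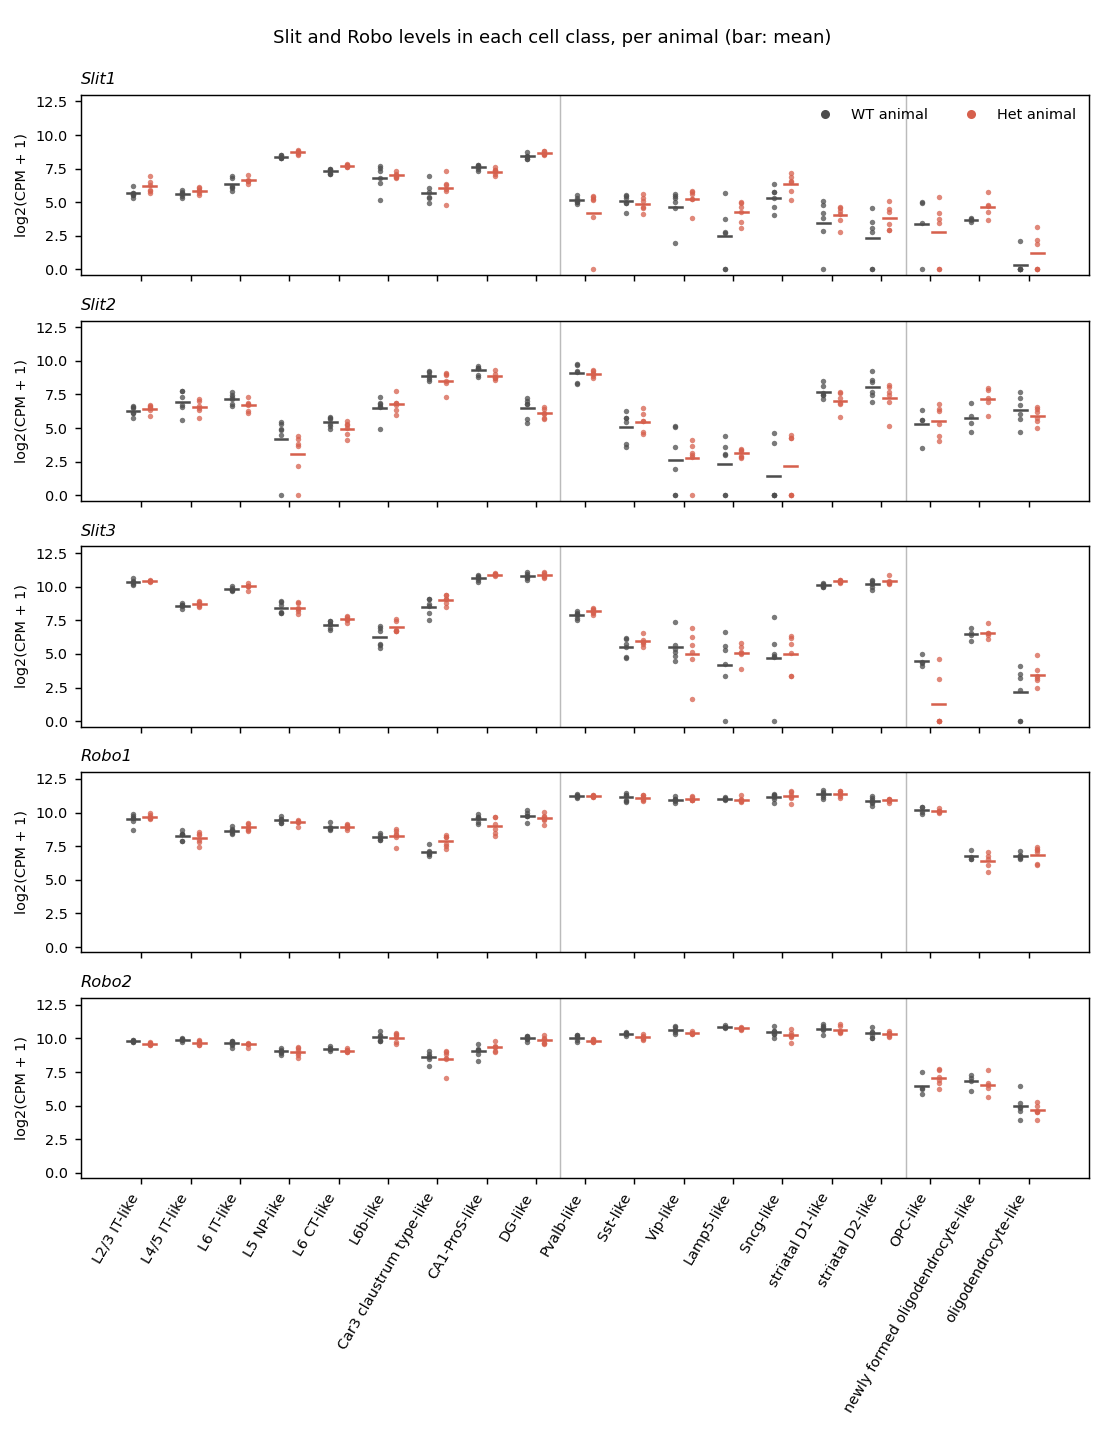
Level of each gene as log2(CPM + 1) in the 19 classes, excitatory to the left, inhibitory in the middle and glial to the right. Each point is an animal with at least 10 nuclei in the class (grey WT, red Het) and each bar the genotype mean. Robo1 is highest in the inhibitory classes, and Slit3 is high in hippocampal, L2/3 IT-like, L6 IT-like and striatal classes.

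Levels also differed among clusters of 1 class. Of the L4/5 IT-like clusters, cluster 6 had 398 to 857 CPM of Robo1 (median 586, 12 animals) and cluster 3 had 22.2 to 69.6 (median 33.5), without overlap. Robo2 and Slit3 went the same way there, at medians of 1206 against 608 CPM and 580 against 251. Of the L2/3 IT-like clusters, cluster 20 had 1355 to 2277 CPM of Robo1 and cluster 2 had 330 to 666, while Robo2 overlapped (457 to 954 against 722 to 988). In clusters 1 and 4 of the L6 CT-like nuclei the receptors were opposed. Cluster 4 had 620 to 829 CPM of Robo1 and 319 to 575 of Robo2, whereas cluster 1 had 306 to 518 of Robo1 and 688 to 967 of Robo2. The 2 clusters did not overlap in either receptor. Cluster 14 of this class had the lowest means in both. Its Robo1 was at means of 162 CPM in WT and 130 in Het, and its Robo2 at 283 and 309. Striatal D1-like nuclei showed the same opposition in their medians, with 3857 CPM of Robo1 and 795 of Robo2 in cluster 43 (7 animals) and 2215 and 1899 in cluster 36. These clusters were made from other genes of the same nuclei, so the differences are a description and were not tested.

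**Figure D2:**
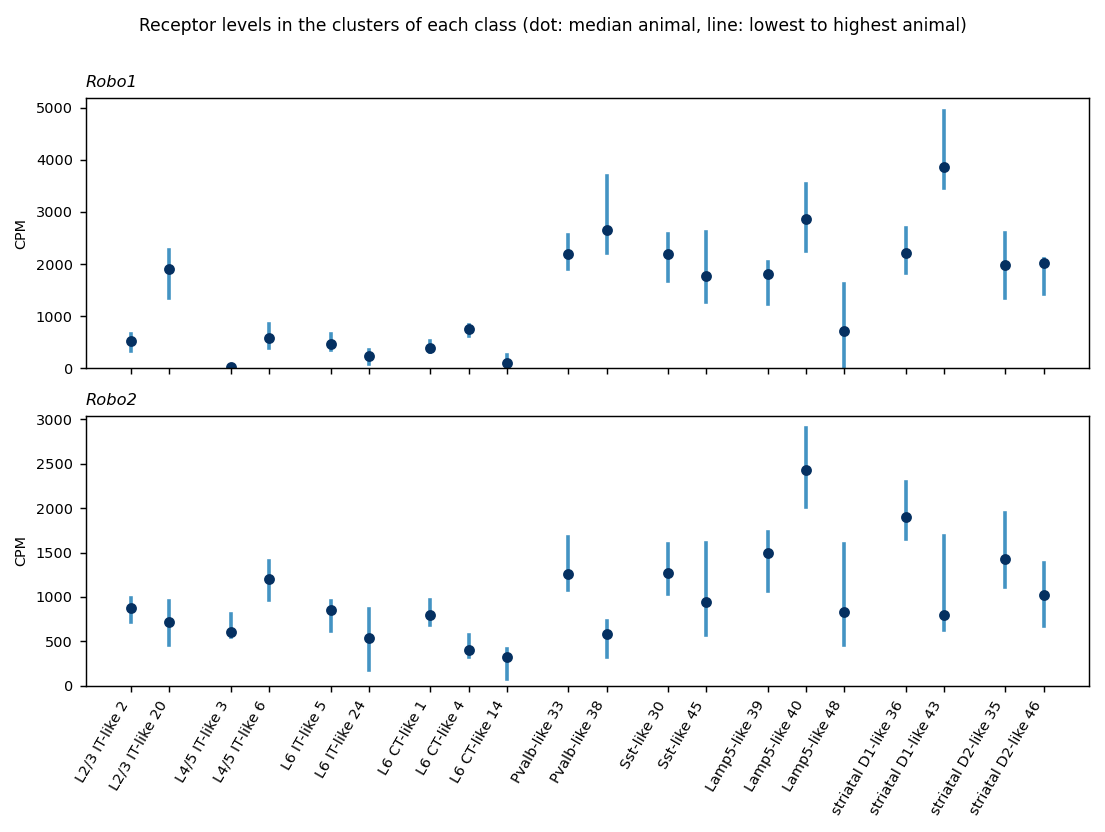
Robo1 and Robo2 in CPM in each cluster of the classes that hold several. The dot is the median animal and the line runs from the lowest to the highest. In L4/5 IT-like and L2/3 IT-like nuclei 1 cluster lies above the other in Robo1, and in L6 CT-like clusters 1 and 4 the receptors are opposed.

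Over the 19 classes, log2(CPM + 1) of Robo1 correlated with that of Robo2 (Pearson r = 0.70), and Slit3 with Slit2 (r = 0.57) and Slit1 (r = 0.55). Slit2 and Robo1 gave r = -0.31. These points share libraries and are given without a test. Among 9267 genes the most similar patterns included those of Ephb2 and Fgd4 for Slit1 (r = 0.86 and 0.82), of Ahcyl1, Rcor1 and Aff1 for Slit2 (0.79, 0.74 and 0.73) and of Ulk4, Arpc2 and Tesc for Slit3 (0.90, 0.88 and 0.87). For Robo1 they were Rbms3, Azi2 and Dpp6 (0.93, 0.91 and 0.87) and for Robo2 Dennd6b, Tmem130 and Rgs7bp (0.93, 0.93 and 0.92).

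Het animals were then compared with WT animals, to ask which of these genes differ in juvenile cortex that has carried the Myt1l allele since conception. With edgeR fitted over all genes of each class or broad sum, a gene counted as called below 0.05 after adjustment if its log2 fold change was beyond 0.2 in either direction. Slit1 rose in Het L6 CT-like nuclei and in all excitatory nuclei, and Slit3 rose in the sum of all inhibitory nuclei. These were 3 of 87 pairs of a gene with a class or sum that passed the filter on low counts. As background, edgeR called 0.925% of genes in L6 CT-like, 0.170% in CA1-ProS-like, 0.159% in L6 IT-like, 0.139% in L4/5 IT-like, 0.107% in Sncg-like, 0.106% in L2/3 IT-like, 0.0760% in Vip-like, 0.0538% in Sst-like and 0.0520% in Lamp5-like nuclei and 0.00% in the other 10 classes. DESeq2 called 6 pairs, which were these 3, Slit1 in all nuclei, Slit3 in L6 CT-like nuclei and Robo2, lower, in L2/3 IT-like nuclei, beside background shares of 2.81% of genes in L6 CT-like nuclei, 1.56% in L2/3 IT-like nuclei, 0.936% in all excitatory, 0.436% in all inhibitory and 0.251% in all nuclei. Slit2, Robo1 and Robo2 had 0 calls by edgeR. At an unadjusted p under 0.05 there were 20 of 72 pairs in the named classes (27.8%), beside 7.21% of all 70347 gene and class pairs tested there.

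Slit1 in L6 CT-like nuclei was at 139 CPM in the lowest, 156 in the median and 181 in the highest WT animal, and at 192, 212 and 225 in Het animals. All 6 Het animals lay above every WT animal. The log2 fold change was 0.40 (standard error 0.08, edgeR adjusted p = 0.00937), beside 0.925% of 8436 genes called in this class and 1.06% whose genotypes did not overlap. In clusters 1, 4 and 14 of this class, fitted alone after the data were seen, the log2 fold changes were 0.36, 0.35 and 0.48 and were not called by edgeR (adjusted p = 0.0948, 0.184 and 0.593), beside 1.41%, 0.551% and 0.00% of genes called, and DESeq2 called cluster 1 (adjusted p = 0.0493). With nuclei assigned by marker gates in place of clusters, the L6 CT-like difference was 0.32 and was not called (edgeR adjusted p = 0.283). Median depth was 3216 UMIs per nucleus in WT and 3356 in Het. The markers of CA1-ProS, a class whose Slit1 levels overlapped these, summed to 167 to 193 CPM in WT and 212 to 259 in Het L6 CT-like nuclei. Of these 5 markers, Mpped1 and Zbtb20 held most of the counts, Fibcd1 and Spink8 were at means of at most 1.14 CPM and Lefty1 was at 0. The study names Zbtb20 among genes changed in deep layer excitatory neurons of embryos without MYT1L, an age and genotype not in these data. Astrocyte markers summed to 24.2 to 36.9 CPM in WT and 11.9 to 28.8 in Het. The part of these in the result was not tested.

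In all excitatory nuclei Slit1 was at 105, 123 and 135 CPM in the lowest, median and highest WT animal and at 137, 150 and 166 in Het animals. The genotypes did not overlap (log2 fold change 0.30, standard error 0.06, edgeR adjusted p = 0.0360), beside 0.163% of 14123 genes called and 0.595% not overlapping. Leaving out a single animal lost the call for 9 of the 12 animals (log2 fold change 0.26 to 0.33, adjusted p 0.0166 to 0.142), and it held without WT female 1, WT female 2 or Het male 2. Without the L6 CT-like nuclei, the difference was 0.23 and was not called (adjusted p = 0.303, beside 0.0150% of genes), with 96.5 to 125 CPM in WT and 122 to 150 in Het. The share of DG-like nuclei, rich in Slit1, among excitatory nuclei was 3.25% in WT (SD 0.666, n = 6) and 4.57% in Het (SD 1.24, n = 6) (exact permutation test, two-sided, p = 0.0455, 1 of 8 shares compared and not adjusted). Within DG-like nuclei Slit1 was at 293 to 420 CPM in WT and 360 to 457 in Het (log2 fold change 0.22, standard error 0.12, unadjusted p = 0.0720 by edgeR). The part of the DG-like share in the sum was not tested.

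In single excitatory classes other than L6 CT-like, Slit1 was not called. Over the 8 classes tested, L6 CT-like included, the fitted difference was positive in 7, and in the other 11 classes Slit1 did not pass the filter on low counts. In all inhibitory nuclei Slit1 was at 35.5, 39.8 and 41.3 CPM in WT and 33.3, 39.8 and 53.3 in Het, overlapping (log2 fold change 0.05, standard error 0.11, adjusted p = 0.995). L5 NP-like nuclei, where its level was highest, had 307, 320 and 371 CPM in WT and 356, 422 and 470 in Het (log2 fold change 0.29, standard error 0.11, unadjusted p = 0.0109, adjusted p = 0.415). L2/3 IT-like nuclei had 39.8, 47.6 and 71.4 CPM in WT and 50.9, 66.4 and 124 in Het (0.56 ± 0.18 standard error, adjusted p = 0.238), and L6 IT-like nuclei gave 0.32 ± 0.16 (adjusted p = 0.644). CA1-ProS-like nuclei went the other way, with a log2 fold change of -0.29. Against the rest of the excitatory nuclei, the effect in CA1-ProS-like nuclei was 0.68 lower on the log2 scale (exact permutation test over 924 relabellings, two-sided, p = 0.00216, which is the smallest they can give, adjusted p = 0.140 over 65 pairs). In L6 CT-like nuclei it was 0.17 higher than in the rest (p = 0.0541, exact permutation test, adjusted p = 0.440), so the effect was not shown to be larger there. No pair passed this test after adjustment. With 924 relabellings a single pair cannot pass over 65 pairs, so no conclusion is drawn from that. In all nuclei Slit1 was at 87.3 to 95.4 CPM in WT and 98.6 to 123 in Het, not overlapping (as for 0.526% of genes) and not called by edgeR (log2 fold change 0.23, adjusted p = 0.219), beside 0.00% of 16530 genes called by edgeR (993 at an unadjusted p under 0.05) and 0.251% by DESeq2, which called it.

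Slit3 in all inhibitory nuclei was at 256, 275 and 340 CPM in the lowest, median and highest WT animal and at 373, 432 and 449 in Het animals, without overlap. The log2 fold change was 0.52 (standard error 0.08, edgeR adjusted p = 0.00533), beside 0.261% of 11490 genes called and 0.557% not overlapping. The call was lost when nuclei above the UMI and gene maxima were kept (0.44, adjusted p = 0.230) and with marker gates (0.40, adjusted p = 0.199). The make-up of this sum was compared between genotypes. In striatal D1-like and D2-like nuclei the level of Slit3 was over 10 times that of the interneuron sum (1137 against 102 CPM in WT). These striatal nuclei were 12.5% of the inhibitory nuclei of WT animals (SD 3.28, n = 6) and 19.4% of those of Het animals (SD 3.74, n = 6). The exact permutation test, two-sided, gave p = 0.0130, which is not adjusted for the other shares compared. Drd2, which marks striatal D2 neurons, was at 27.0 to 45.9 CPM of the sum in WT and 42.2 to 70.5 in Het. Outside the striatal classes Slit3 was at 137, 177 and 208 CPM in WT and 190, 205 and 245 in Het, a log2 fold change of 0.22 (standard error 0.09, adjusted p = 1.000, beside 0.00% of genes called). That sum still held unnamed clusters, among them cluster 41 (336 nuclei), whose best marker match was striatal D1, so it may not be free of striatal neurons. In the striatal classes together it was at 936, 1118 and 1357 CPM in WT and 1198, 1328 and 1667 in Het (0.25 ± 0.10 standard error, adjusted p = 0.848), and in the named interneuron classes it gave 0.21 (adjusted p = 0.922, beside 0.0498%). The part of the striatal share in the sum was not tested.

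In L6 CT-like nuclei Slit3 was at 110, 147 and 175 CPM in WT and 160, 193 and 224 in Het. Of the Het animals, 5 of 6 lay above every WT animal (log2 fold change 0.37, standard error 0.10, edgeR adjusted p = 0.0728), and DESeq2 called it (adjusted p = 0.0418). With edgeR it was called when WT male 3, WT female 2 or Het male 2 was left out (0.45, 0.43 and 0.44, adjusted p = 0.0327, 0.0390 and 0.0226). It was also called by edgeR with animals blocked by replicate number. Same-numbered animals share only that number, so the blocked fit is not added support. Fitted by cluster after the data were seen, clusters 1 and 14 gave 0.37 and 0.31 with overlapping genotypes and were not called (adjusted p = 0.109 and 0.810). Cluster 4 gave 0.56 (standard error 0.13, adjusted p = 0.0323), with 75.9 to 129 CPM in WT and 140 to 203 in Het, beside 0.551% of 4898 genes called in that cluster. Against the rest of the excitatory nuclei the L6 CT-like effect was 0.27 higher (exact permutation test, two-sided, p = 0.00866, adjusted p = 0.141). The same sum of CA1-ProS markers stands beside this result, and Fibcd1, Spink8 and Lefty1 were at or near 0 in this class. Other pairs of Slit3 at an unadjusted p under 0.05 were all positive, and none was called: CA1-ProS-like nuclei at 1338, 1642 and 1864 CPM in WT and 1774, 1944 and 2048 in Het (0.25, adjusted p = 0.358), striatal D1-like nuclei at 1029, 1081 and 1258 and at 1251, 1358 and 1485 (0.26, adjusted p = 0.597), and Pvalb-like nuclei at 179, 242 and 288 and at 242, 288 and 347 (0.29, adjusted p = 0.993). With marker gates in place of clusters the Pvalb-like difference turned negative. All excitatory nuclei gave 0.11 (standard error 0.07, adjusted p = 0.800), with 614 to 846 CPM in WT and 719 to 859 in Het. The difference was positive in 12 of 13 named classes tested, with a median of 0.25.

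Slit2 gave mostly negative differences, in 10 of 14 named classes tested, with a median of -0.34, and 0 calls by edgeR or DESeq2. Its level was high in WT male 1 and WT male 3 in several sums: in all nuclei these had 224 and 204 CPM, against 114 to 142 in the other 4 WT and 118 to 135 in the Het animals, and in all inhibitory nuclei 305 and 325 CPM, against 119 to 208 in the other WT animals. Without WT male 1 or WT male 3 the log2 fold change in all excitatory nuclei was -0.33 or -0.38, and in all inhibitory nuclei -0.21 or -0.17. In CA1-ProS-like nuclei these animals, at 693 and 706 CPM, did not stand apart from the other WT animals. The study also listed Slit2 and Robo2, from these animals, among axon guidance genes that it called higher in WT. Their direction here is therefore not independent evidence. In the classes and sums used here Slit2 was called by neither tool, and Robo2 only by DESeq2 in L2/3 IT-like nuclei. In CA1-ProS-like nuclei Slit2 was at 445, 698 and 778 CPM in WT and 374, 428 and 632 in Het, with all 6 Het animals below the WT median (log2 fold change -0.47, standard error 0.13, unadjusted p = 0.00145, adjusted p = 0.165). Without Het female 2 it was called (-0.55, adjusted p = 0.0301). All excitatory nuclei had 107, 121 and 201 CPM in WT and 69.9, 106 and 119 in Het (-0.46 ± 0.20 standard error, adjusted p = 0.608). DG-like nuclei gave -0.52 ± 0.24 (adjusted p = 0.607) and striatal D1-like nuclei -0.66 ± 0.27 (adjusted p = 0.623). In Pvalb-like nuclei, where its level was highest among the classes tested, the genotypes overlapped and the unadjusted p was not under 0.05. Newly formed oligodendrocyte-like nuclei went the other way, from 25.2 to 116 CPM in 4 WT animals to 57.7 to 256 in 5 Het animals (1.25 ± 0.45 standard error, adjusted p = 0.721). That difference rests on few counts, 2 to 11 UMIs per WT animal and 8 to 29 per Het animal. All inhibitory nuclei gave -0.32 ± 0.24 (adjusted p = 0.928).

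**Figure D3:**
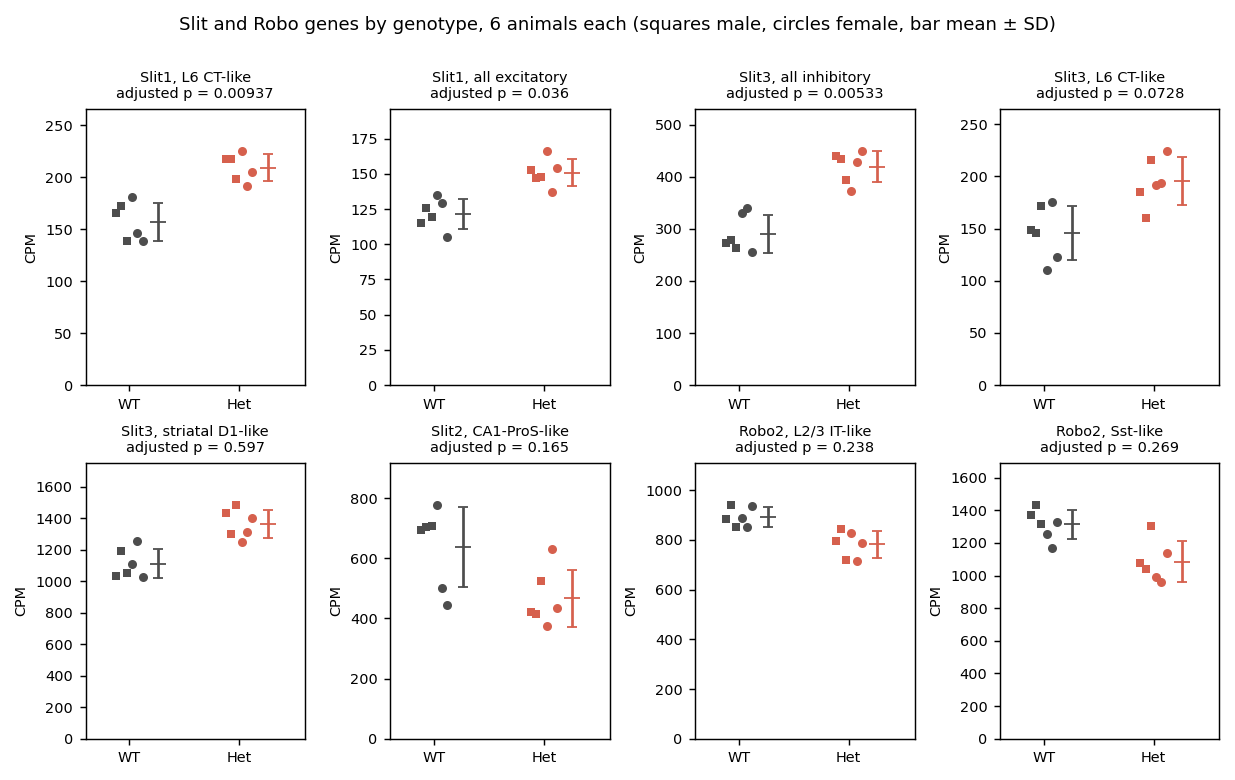
CPM of Slit1, Slit2, Slit3 and Robo2 in the classes or sums named above each panel, with 6 WT and 6 Het animals (squares male, circles female) and the mean ± SD. WT and Het animals are apart for Slit1 in both panels, Slit3 in all inhibitory nuclei and Robo2 in L2/3 IT-like nuclei, and overlap in the others.

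Robo1 was not called in either broad sum, and the genotypes overlapped. It was at 481, 576 and 657 CPM in WT and 530, 548 and 631 in Het excitatory nuclei (log2 fold change -0.04, standard error 0.06, adjusted p = 0.940), and at 1658, 2090 and 2523 and at 1717, 2288 and 2420 in inhibitory nuclei (-0.02 ± 0.11 standard error, adjusted p = 1.000). It could be tested in all 19 named classes, and the difference was positive in 9 and negative in 10. Car3 claustrum type-like nuclei, with the lowest neuronal level, had 106, 128 and 199 CPM in WT and 157, 246 and 320 in Het (0.72 ± 0.24 standard error, unadjusted p = 0.00568, adjusted p = 0.367). Counts there were few, 6 to 20 UMIs per WT animal and 12 to 33 per Het animal. L6 IT-like nuclei gave 0.22 ± 0.10 (adjusted p = 0.606).

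Robo2 gave small negative differences in 15 of 18 named classes, with a median of -0.13. All 6 pairs in named classes at an unadjusted p under 0.05 were negative. In L2/3 IT-like nuclei it was at 850, 887 and 941 CPM in WT and 717, 791 and 845 in Het, without overlap (0.696% of genes did so, log2 fold change -0.22, standard error 0.07, edgeR adjusted p = 0.238, DESeq2 adjusted p = 0.0370). Sst-like nuclei had 1171, 1321 and 1433 CPM in WT and 959, 1059 and 1304 in Het (-0.30 ± 0.09 standard error, adjusted p = 0.269). The others were L4/5 IT-like (-0.24, adjusted p = 0.263), Pvalb-like (-0.27, adjusted p = 0.993), Vip-like (-0.27, adjusted p = 0.583) and L6 CT-like nuclei (-0.18, adjusted p = 0.281). All excitatory nuclei gave -0.12 ± 0.06 (adjusted p = 0.636), with 762 to 896 CPM in WT and 715 to 810 in Het, and all inhibitory nuclei -0.15 ± 0.08 (adjusted p = 0.858). Comparisons of different classes share the same animals, so these counts are not independent.

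**Figure D4:**
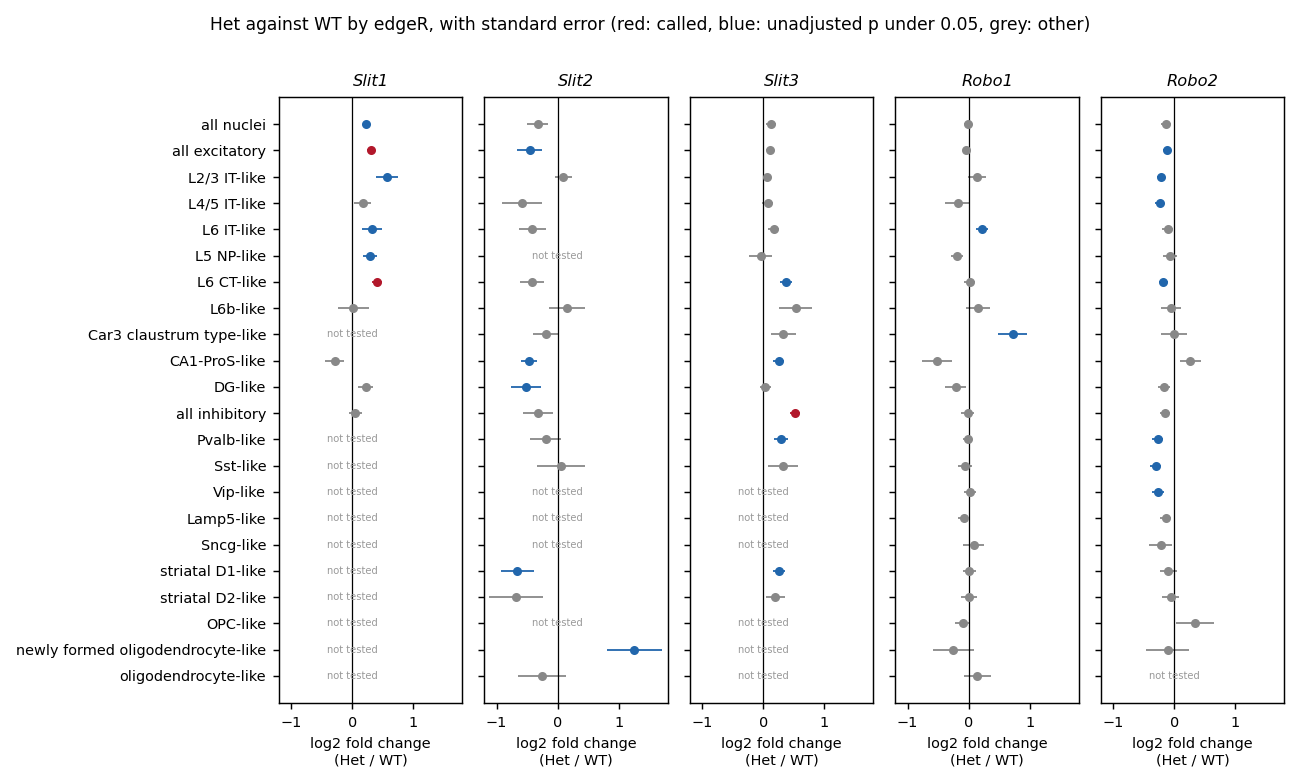
Log2 fold change of Het over WT by edgeR with its standard error, for each gene (columns) in each class or sum (rows). Red marks the 3 calls, blue an unadjusted p under 0.05 and grey the rest. Slit1 and Slit3 lie mostly to the right of 0, and Slit2 and Robo2 mostly to the left.

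The effect was also compared between the sexes. Of 87 pairs, 15 had an unadjusted p under 0.05 for the interaction of sex and genotype by edgeR and 0 were called (smallest adjusted p = 0.497). Of all gene and class pairs, 5.01% were at an unadjusted p under 0.05 and 0.0178% were called by edgeR. The smallest edgeR p was for Robo1 in Sst-like nuclei, at log2 fold changes of 0.24 in males and -0.31 in females (edgeR interaction term, unadjusted p = 0.00227). An exact permutation of sex labels, run on 82 pairs, had 7 at an unadjusted p under 0.05 and called 0. It has only 400 relabellings, too few for a single pair to be called after adjustment, so no conclusion is drawn from its lack of calls.

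The pathway list held 47 other genes, of which 39 were tested in all inhibitory nuclei, where the only pathway gene called was found. Of the 22 tested effectors in the cytoplasm, Srgap1, a GTPase-activating protein that binds the tail of ROBO and acts on Cdc42, was called. It was at a median of 113 CPM in WT and 153 in Het (log2 fold change 0.48, standard error 0.07, edgeR adjusted p = 0.00533), and Het animals lay above every WT animal, beside 0.261% of all genes called in this sum and 0.557% not overlapping. At an unadjusted p under 0.05 there were 3 pathway genes higher and 1 lower of 39, beside 6.55% of all genes. Like Slit3, Srgap1 was higher in the striatal classes (294 CPM against 86.2 in the other inhibitory nuclei of WT). Outside them its difference was 0.23 (adjusted p = 1.000) and within them 0.41 (adjusted p = 0.848), both not called. Cables1, which links ROBO signalling to cadherin adhesion, gave 0.27 (adjusted p = 0.712). Of the 8 co-receptors and proteoglycans tested, Dcc, the netrin receptor that ROBO can silence, was at a mean of 1080 CPM in WT and 1277 in Het (0.23 ± 0.07 standard error, adjusted p = 0.383), and Sdc2, a syndecan, gave 0.24 (adjusted p = 0.844). Among enzymes of heparan sulfate, the sugar chain that SLIT binding needs, Hs6st1 gave 0.19 (adjusted p = 0.955) and Hs2st1 0.04 (adjusted p = 0.995). Of the genes of receptor trafficking, Ndfip1, an adaptor of ubiquitin ligases, and Usp33, a deubiquitinase that binds ROBO1, each gave -0.07 (adjusted p = 0.961 and 0.965). The other ligands, Ntn1, which binds DCC, and Nell2, a ligand of ROBO3, gave 0.29 (adjusted p = 0.894) and 0.01 (adjusted p = 1.000).

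In L6 CT-like nuclei 37 pathway genes were tested, 0 were called by edgeR, and at an unadjusted p under 0.05 there were 3 higher and 3 lower, beside 0.925% of all genes called and 10.1% at that p, and a median of -0.04 for the list and -0.01 for all genes. In all excitatory nuclei 40 were tested and 0 called, with 1 at an unadjusted p under 0.05, beside 0.163% and 7.77% of all genes. Over all classes and sums, edgeR called 1 of 587 pairs of a pathway gene and a class or sum (0.151% of pairs of all genes) and DESeq2 1 of 825 with an adjusted p (0.0996%). Robo3, the divergent receptor of commissural neurons, was highest in L2/3 IT-like nuclei at 67.4 to 112 CPM, beside 24.5 ± 4.62 (SD, n = 12) in all nuclei. Robo4, the receptor of blood vessels, was at 0.150 CPM in all nuclei.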

How the data were processed

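Cortical nuclei of 12 mice were sequenced with the ScaleBio combinatorial indexing kit. Per the labels and the study's methods, the authors aligned the reads to mm10 and called nuclei with removal of ambient RNA, and deposited 1 matrix of expected counts of UMIs per animal, of which 92.6% of entries are whole. Their processing notes name Seurat 4.3.0 and DESeq2 1.38.3. The study removed multiplets with DoubletFinder in its own analysis, and whether the matrices were deposited before that step is not given in the sources used here.

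Nuclei were kept at 800 to 6000 UMIs, 300 to 3000 genes and up to 1% mitochondrial counts where log genes over log UMIs reached 0.9. Clustering used scanpy 1.11.5 and leidenalg 0.10.2, and likely doublets (5%) were removed. Clusters were named from fixed marker lists, with thresholds set after the clusters were seen. Expected counts were summed per animal and class (at least 10 nuclei), rounded and tested with edgeR 4.0.16 (quasi-likelihood, TMM, Benjamini-Hochberg over all genes of a class). DESeq2 1.42.0 was the alternative. Effects in a class against the rest were tested by exact permutation on log2(CPM + 1). Other alternatives were a sex covariate, a replicate block, other filters on genes or nuclei, marker gates in place of clusters, and leaving out each animal. Pairs of a gene and class were printed at an unadjusted p under 0.05, with both broad sums always, and pathway genes if called or if among up to 2 of a role with the smallest p in all inhibitory nuclei. Genes of similar pattern were the 3 with the highest correlation over classes, of which 1 is not reported here. The genes and lists were chosen with earlier results of these data known. P-values measure the spread between animals, and the 4 litters were not mapped to animals. The edgeR fit was tested on simulated counts for L6 CT-like, all excitatory and all inhibitory nuclei. Same-numbered animals correlated at -0.32 to 0.33 and share only a number.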

Additional observations from a re-analysis of the deposited data

Results flagged for a closer look

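Of 60 groups of 6 animals examined for a single animal far from the others, 2 held one, and chance flags about 1 group in 20. Robo1 in Car3 claustrum type-like nuclei was at 199 CPM in WT female 2, whereas the next WT animal was at 138, so the gap was 0.65 of the group's range, beyond the 95% critical value of Dixon's test. Slit1 in L2/3 IT-like nuclei was at 71.4 CPM in WT female 1, with the next WT animal at 51.3, a gap of 0.64 of the range. Neither pair of gene and class was called between genotypes.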

How the results depend on the processing

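Of the 87 pairs of a gene with a class or sum, 3 were called by edgeR, 6 by DESeq2 and 1 when nuclei above the UMI and gene maxima were kept. Leaving out 1 animal gave 2 to 4. With marker gates in place of clusters 0 were called, but not every pair had a value there. Slit1 in all excitatory nuclei (0.30) was no longer called with sex as a covariate (0.30, adjusted p = 0.0510), with the replicate block (0.30, adjusted p = 0.108), without the upper limits (0.27), with marker gates (0.28) or outside L6 CT-like nuclei (0.23), and gave 0.26 to 0.33 with 1 animal left out. The block changed no other call but that of Slit3 in L6 CT-like nuclei, which it made (0.39, adjusted p = 0.0311). Slit1 in L6 CT-like nuclei (0.40) was not called with marker gates (0.32) or in clusters 1, 4 and 14 (0.36, 0.35 and 0.48), and stayed called without each animal in turn (0.36 to 0.45). Slit3 in all inhibitory nuclei (0.52) was not called without the upper limits (0.44), with marker gates (0.40), outside the striatal classes (0.22), in interneuron classes (0.21) or in striatal classes (0.25), and stayed called without each animal (0.48 to 0.57). Slit3 in Pvalb-like nuclei turned to -0.03 with marker gates. Robo1 turned to 0.01 in all inhibitory nuclei without the filter on low counts and to 0.03 without the upper limits. With 1 animal left out it ranged from -0.09 to 0.04 there and from -0.09 to 0.01 in all excitatory nuclei, and Slit1 in all inhibitory nuclei from -0.05 to 0.12. With marker gates the mean level of Slit1 in L5 NP-like nuclei was 264 CPM and that of Robo2 in Lamp5-like nuclei 1944. The class with the highest level changed for Slit1 (DG-like, 347 CPM), Slit3 (CA1-ProS-like, 1776), Robo1 (Sncg-like, 3120) and Robo2 (striatal D1-like, 1811) without the upper limits, for Slit2 (CA1-ProS-like, 559) without doublet removal, and for Slit3 (L2/3 IT-like, 1177) and Robo1 (Pvalb-like, 2596) with marker gates. Slit3 in DG-like and Robo1 in striatal D1-like nuclei had no value with marker gates, so these classes could not rank first there. The cause of the other changes was not tested. The fits of single clusters, the sets outside L6 CT-like and striatal classes and the interneuron and striatal sums were chosen after seeing the data. Slit1 did not pass the filter on low counts in 11 of 19 classes.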
